A study of Gallus gallus with 6 samples.

Results

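The genes described here are those whose transcripts were more abundant with MEK1ca than in the control and more abundant again when HOXB8 was added to MEK1ca, so that their levels went up in both steps. They were selected by their CPM (read counts scaled to a common library total of 1000000) in the same 6 libraries that are described below. A gene was kept at a mean of at least 3 CPM in MEK1ca + HOXB8, a ratio of at least 1.4 of MEK1ca over pCIG and a ratio of at least 1.5 of MEK1ca + HOXB8 over MEK1ca, with 0.5 CPM added to each mean. Both libraries of a condition also had to lie above both libraries of the condition before it. These conditions were met by 89 of the 17108 genes in the table, or by 0.864% of the 10302 genes that reached 3 CPM in MEK1ca + HOXB8. Because the levels in all 3 conditions chose the genes, their levels and folds are given as a description. None of them is a test of the selection.

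RNA-Seq was made from cells of the chicken trunk neural tube, the embryonic spinal cord, which were electroporated in ovo around HH 11 and sorted for GFP 18 h later. In the control, the empty vector pCIG, which drives GFP alone, was given at 2 µg/µL. MEK1ca cells received 1 µg/µL of pCIG-MEK1ca and 1 µg/µL of empty pCIG, and MEK1ca + HOXB8 cells 1 µg/µL each of pCIG-MEK1ca and pCIG-HoxB8, so that the total of DNA was the same in all 3 conditions. There were 2 libraries per condition, each from pooled embryos. A step between conditions is therefore a comparison of separate pools taken at the same time, not a change over time. Both vectors carry the same reporter, so that cells with a single vector were not removed by the sort. The paper states that co-transfection is nearly total in this tissue at this stage, and it assumes that sorted cells held both. Within a sorted pool, more RNA per cell and more cells that hold the RNA cannot be told apart. The total counts ranged from 63637195 to 90460770 per library. The pCIG and MEK1ca libraries are marked as a reanalysis in the labels and the MEK1ca + HOXB8 libraries are not, and any other difference between these sets of libraries cannot be told apart from the addition of HOXB8. Among genes with 1 to 10 counts, the count was even for 99.4% in MEK1ca replicate 2, whereas this share was 51.8% to 57.0% elsewhere. The genes described here shared this, with even counts for 86 of the 89 in that library and for 39 to 50 in the others. With the counts of that library halved, 28, 50 and 87 of the 89 genes were called in the 3 comparisons given below, in place of 28, 49 and 86. Over all genes tested, 585, 1196 and 1263 were called higher, in place of 578, 1187 and 1210.

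MEK1 is the kinase that phosphorylates ERK1/2, the last kinases of a cascade through which growth factors change transcription, and the mutant MEK1ca is active without such a signal. ERK1/2 act on transcription through nuclear substrates such as ETS factors, and among the genes they induce are inhibitors of the cascade itself. HOXB8 is a homeodomain transcription factor of the HOX family, which gives cells their position along the body axis and can both activate and repress its targets. The question asked of these libraries was whether HOXB8 alters the response to ERK, and genes that stand higher still when both are expressed form one of the possible outcomes. The paper also sequenced cells with HOXB8 alone, but none of the libraries used here held HOXB8 without MEK1ca. A rise that HOXB8 brings by itself therefore cannot be told apart from a changed response to ERK. The count table gives Ensembl identifiers without gene names, and 0 of the 17108 identifiers were found in the RefSeq table used here. The functions of these genes, the genes of the ERK pathway, the HOX genes, the levels of both electroporated coding sequences and the markers of neural and other cell types were therefore not examined. For the same reason no promoter or protein sequence could be tied to a gene. The genes are given below by their position in galGal4 and their exons, and 2 of them by identifier.

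At the median of the 89 genes, the mean level was 2.40 CPM in pCIG, 4.57 CPM in MEK1ca and 11.7 CPM in MEK1ca + HOXB8. The levels ranged from 0.0258 to 87.4 CPM in pCIG and from 3.20 to 206.2 CPM in MEK1ca + HOXB8. Scaled to exonic length as TPM (transcripts of a common total of 1000000), 59 of them reached 1 TPM with pCIG, 77 with MEK1ca and 89 with HOXB8 as well, and 12, 24 and 44 reached 10 TPM. The control thus held some of these transcripts at well measurable levels and others barely. The ratio of MEK1ca over pCIG had a median of 1.57 (1.403 to 5.43), and that of MEK1ca + HOXB8 over MEK1ca a median of 2.04 (1.503 to 7.72). Over both steps together the median ratio was 3.75 (2.22 to 17.1). By these ratios, with 0.5 CPM added, the step on addition of HOXB8 was the larger on a log scale in 66 genes. The step by MEK1ca was the larger in the other 23. The medians of the log2 ratios were 0.65 by MEK1ca and 1.03 on addition of HOXB8. In the edgeR fit given below the median log2 fold changes lay closer, at 0.79 and 0.98. The split thus depends on how the folds are computed. The lower limits of these ratios and of the level in MEK1ca + HOXB8 are set by the selection.

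At the median, libraries of the same condition differed by less than the steps between conditions, which the selection largely fixed. It kept only genes whose libraries did not overlap between conditions and whose steps reached the limits. Between the 2 libraries, with 0.5 CPM added to each, the median fold over the 89 genes was 1.16 for pCIG, 1.19 for MEK1ca and 1.18 for MEK1ca + HOXB8, with the highest at 2.09, 2.10 and 1.79. The lower MEK1ca library lay above the higher pCIG library by a median factor of 1.42 and by as little as 1.02, with 7 genes under 1.1. The corresponding factor between MEK1ca + HOXB8 and MEK1ca was 1.78 at the median and 1.09 at the least, with 1 gene under 1.1. At the median the second step was the better separated of the pair, and its limit in the selection was also the higher, 1.5 beside 1.4. Replicate 1 was the higher library for 59 genes of pCIG, 50 of MEK1ca and 37 of MEK1ca + HOXB8.

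**Figure D1:**
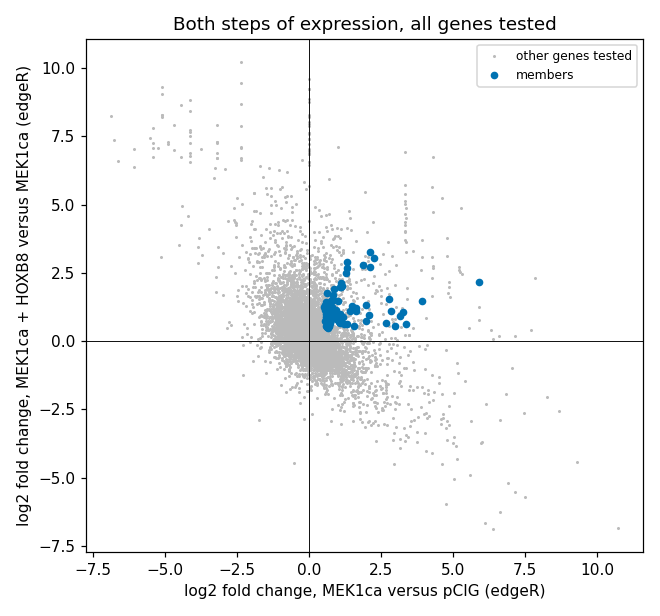
Log2 fold change by MEK1ca (horizontal) against log2 fold change on addition of HOXB8 (vertical), both from edgeR, with 1 point for each of the 13582 genes tested. The 89 selected genes (blue, members) lie to the upper right because the selection placed them there. Their log2 fold changes are at least 0.54 and 0.49.

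All 89 genes were among the 13582 that had enough counts for edgeR's quasi-likelihood test, with p-values adjusted over all of these by Benjamini and Hochberg. A gene was called where its adjusted p was at most 0.01. By this measure 28 of them were called higher in MEK1ca versus pCIG, where 4.26% of all genes tested were. On addition of HOXB8, 49 were called higher, beside 8.74% of all genes, and against pCIG 86 were called higher in MEK1ca + HOXB8, beside 8.91%. As the genes were chosen by these contrasts, nothing is read from the excess over the background. What the counts show is how many of the selected genes pass a genome-wide test with 2 libraries per condition. Both steps were called in 18 genes, only the step by MEK1ca in 10, only the step by HOXB8 in 31 and neither step in 30. Of the latter, 27 were called in MEK1ca + HOXB8 versus pCIG alone and 3 in no comparison. In all, 23 genes of the table were called higher in both steps, and 5 of these did not meet the selection. The median log2 fold change of the 89 genes in this fit was 0.79, 0.98 and 1.98 in the 3 comparisons, beside -0.01, 0.02 and 0.02 for all genes. Leaving out 1 library changed these counts of calls and also those of all genes, as given in the closing section. The change is therefore not read as a property of the selected genes.

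Above 1 CPM, the rarer transcripts of the whole table stood higher on addition of HOXB8, and most of the selected genes are of such abundance. Over all genes tested, the median log2 fold change was 0.49 at a mean of 1 to 2 CPM over the 6 libraries, 0.34 at 2 to 5 CPM, 0.12 at 5 to 20 CPM and -0.09 above. The selected genes had medians of 2.601 (6 genes), 1.07 (33 genes), 0.98 (38 genes) and 0.65 (12 genes) in the same ranges, so that they lay above the median of genes of like abundance in each of them. That position is given by the selection, while the slope is a property of the whole table. In MEK1ca versus pCIG the medians of all genes lay between -0.11 and 0.01, and those of the selected genes ran from 1.72 in the rarest to 0.63 in the most abundant range. The floor and the 0.5 CPM added in the selection ask larger folds of rarer genes. The fall of the medians of the selected genes is thus partly set by the selection in both steps. With offsets that take out the slope, the 49 genes called higher on addition of HOXB8 became 33, and the 1187 of all genes became 945. Counted by library totals, as in the selection, the median of all genes in MEK1ca + HOXB8 versus MEK1ca was 0.12 on the log2 scale, and it was 0.02 after TMM normalization. With TMM in the selection itself, 79 genes were found, 77 of them among the 89.

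**Figure D2:**
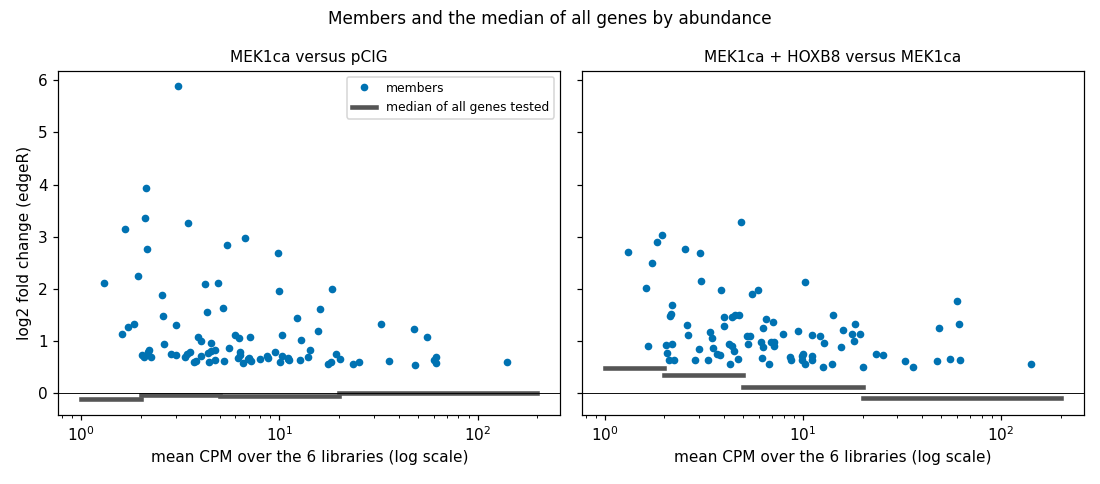
Log2 fold change (edgeR) of the 89 selected genes (blue points) against their mean CPM over the 6 libraries, for MEK1ca versus pCIG (left) and MEK1ca + HOXB8 versus MEK1ca (right). Grey bars give the median of all genes tested in 4 ranges of abundance, which falls from 0.49 to -0.09 on addition of HOXB8 and stays between -0.11 and 0.01 with MEK1ca. The last bar is drawn up to 200 CPM and stands for all genes above 20 CPM.

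Ordered by their control level in CPM, the selected genes fell into 4 classes. In pCIG, 14 genes had a mean under 0.5 CPM. Their median ratio was 2.04 in the step by MEK1ca and 3.92 in the step by HOXB8, and over both steps they ranged from 4.68 to 17.1. Another 49 genes had 0.5 to 5 CPM in pCIG, with median ratios of 1.57 and 2.03. For the 18 genes with 5 to 20 CPM the ratios were 1.52 and 1.78, and for the 8 genes with 20 CPM or more 1.51 and 1.68. At low levels these ratios understate the fold, since 0.5 CPM is added to each mean. They mostly do so more for the step by MEK1ca, which starts from the lower level. The larger median ratio of the step by HOXB8 in the rarest class is thus partly set by the added value. Because 3 CPM was required in MEK1ca + HOXB8, genes rare in the control could enter only with a large ratio over both steps. The fall of the ratios over the classes is thus partly set by the selection.

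With 0.5 CPM added to each mean, the largest ratio over both steps was found for ENSGALG00000006614. This gene lies on the minus strand at chr24:3531090-3553567 of galGal4 with 26 exons and an exonic length of 7175 bases. It had 0.299 and 0.291 CPM in the pCIG libraries, 1.54 and 0.987 CPM in MEK1ca and 9.61 and 16.6 CPM in MEK1ca + HOXB8. The conditions did not overlap, as the selection required, and the gap between the libraries was widest with HOXB8. In edgeR the log2 fold change was 2.11 (standard error 0.38) by MEK1ca and 3.27 (standard error 0.32) on addition of HOXB8. The former was 1.75 without MEK1ca replicate 1 and 2.41 without MEK1ca replicate 2. Over both steps, with all 6 libraries, the log2 fold change was 5.38, less than the 8.04 and 5.41 of genes on chromosome 26 described below. For ENSGALG00000006614 the ratio of 7.72 in the second step was the highest of the 89, and MEK1ca alone brought 7.56% of its whole rise in CPM. Per exonic length it was a rare transcript throughout, at 0.0806 ± 0.0024 TPM (SD, n = 2) in pCIG and 3.51 ± 1.41 TPM in MEK1ca + HOXB8.

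The fewest control counts were those of a gene of 7 exons on the plus strand of chromosome 26, at 1553858 to 1557199. It had 3 and 1 counts with pCIG, 102 and 120 with MEK1ca, and 618 and 705 when HOXB8 was co-expressed. In CPM these are 0.0258 ± 0.0186, 1.58 ± 0.0314 and 7.59 ± 1.07 (SD, n = 2), with wide gaps between the conditions. From the summed counts, MEK1ca held 61.6 times the control level (exact 95% interval 23.7 to 228.0) and MEK1ca + HOXB8 295.2 times (115.0 to 1085). These intervals cover counting error only, and the few control counts set their width.

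Other genes with few control counts differed in how much of the rise came with MEK1ca. A gene of 2 exons on the minus strand at chr12:1831238-1832110 had 0.208 and 0.278 CPM in pCIG, 0.864 and 0.909 CPM in MEK1ca and 5.73 and 7.31 CPM in MEK1ca + HOXB8. Its libraries were close within each condition, and its level was under 1 CPM in both conditions without HOXB8. The gene of 4 exons at chr9:4185849-4189691 had 0.286 and 0.190 CPM, then 0.550 and 0.623 CPM, then 4.28 and 5.12 CPM. In the gene of 6 exons at chr28:2603716-2606506 they were 0.273 and 0.607 CPM, 1.02 and 1.14 CPM, and 7.56 and 7.45 CPM. Both reached under 10% of their rise with MEK1ca, at 7.82% and 9.09%. At the other end, the gene of 2 exons at chr24:4298023-4299052 was at 0.169 and 0.278 CPM in pCIG, 1.93 and 2.62 CPM in MEK1ca and 3.36 and 4.24 CPM in MEK1ca + HOXB8. Of its rise from pCIG to MEK1ca + HOXB8, 57.4% was reached with MEK1ca alone.

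Across the 89 genes, the share of the rise in CPM from pCIG to MEK1ca + HOXB8 that was reached with MEK1ca had a median of 28.6% and quartiles of 18.6% and 35.5%. It ran from 7.56% to 59.7%. The limit on the step by HOXB8 bounds this share from above. From below, the selection asks only for a rise with MEK1ca. In 24 genes it was under 20%, and in 4 genes at least 50%. The highest share was that of a gene of 4 exons on the plus strand at chr20:11503875-11517756. It had 1.01 and 0.911 CPM in pCIG, 5.86 and 9.01 CPM in MEK1ca and 10.2 and 13.5 CPM in MEK1ca + HOXB8. With 0.5 CPM added to each mean, its ratio by MEK1ca, 5.43, was the highest of the 89. Its ratio on addition of HOXB8, 1.55, was close to the limit. In edgeR its log2 fold change by MEK1ca was 2.97. Rarer genes exceeded this, among them that at chr26:1553858-1557199 with 5.88. Next in the ratio by MEK1ca was a gene of 2 exons on the minus strand at chr4:48960039-48966650. It had 1.78 and 1.51 CPM in pCIG, 12.9 and 7.92 CPM in MEK1ca and 19.3 and 15.9 CPM in MEK1ca + HOXB8. In these genes on chromosomes 20 and 4, the MEK1ca libraries differed from each other by more than the higher of them did from the lower MEK1ca + HOXB8 library. Their step on addition of HOXB8 was not called in edgeR.

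**Figure D3:**
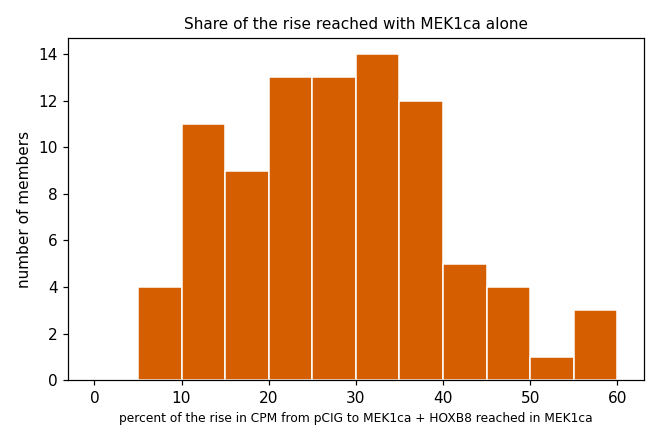
Number of selected genes (vertical) by the percent of their rise in CPM from pCIG to MEK1ca + HOXB8 that was reached in MEK1ca (horizontal, bars of 5 percentage points). The median is 28.6% and 4 of the 89 genes reach 50% or more.

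ENSGALG00000006614 and the genes at chr26:1553858-1557199 and chr12:1831238-1832110 were among the 5 with the largest ratios over both steps, which are completed by another pair. The gene of 11 exons on the plus strand at chr13:17233300-17251677 had 0.701 and 0.632 CPM in pCIG, 5.92 and 3.56 CPM in MEK1ca and 9.53 and 12.2 CPM in MEK1ca + HOXB8. Its log2 fold change on addition of HOXB8, 1.09 (standard error 0.26), was called in edgeR. It was also called with library size alone, DESeq2 and a replicate block, but not with size factors of DESeq2 in edgeR. Without MEK1ca replicate 1 it was 1.51, and without MEK1ca replicate 2 it was 0.75. In the gene of 9 exons on the minus strand at chr6:20116052-20123525 the levels were 3.60 and 3.47 CPM, 19.0 and 8.78 CPM, and 39.4 and 35.9 CPM. It was the most variable of the 89 in MEK1ca, where replicate 1 stood 2.10 times as high as replicate 2 with 0.5 CPM added to both. Its step on addition of HOXB8, a log2 fold change of 1.33 (standard error 0.32), was not called in edgeR, and it was called without MEK1ca replicate 1, at a log2 fold change of 2.00, and without MEK1ca replicate 2, at 0.86.

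Per exonic length, the most abundant gene with HOXB8 was ENSGALG00000015764, which has 4 exons on the plus strand at chr2:121148557-121153615 and an exonic length of 1302 bases. It had 43.2 and 43.7 TPM in pCIG, 51.7 and 79.1 TPM in MEK1ca and 195.5 and 137.1 TPM in MEK1ca + HOXB8. The control libraries were nearly equal, while those of both other conditions differed by more than the means of pCIG and MEK1ca did. In edgeR its log2 fold change was 0.58 (standard error 0.24) by MEK1ca, which was not called, and 1.32 (standard error 0.24) on addition of HOXB8, which was. That call was lost without MEK1ca + HOXB8 replicate 1, at a log2 fold change of 1.00, and without pCIG replicate 1, at 1.32.

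A gene of 4 exons at chr6:29813247-29832893 followed in this order. Its levels were 99.7 and 75.04 CPM in pCIG, 146.0 and 113.2 CPM in MEK1ca and 206.1 and 206.3 CPM in MEK1ca + HOXB8. The libraries with HOXB8 were nearly equal and those of pCIG and MEK1ca less so. Neither step was called in edgeR, at log2 fold changes of 0.59 and 0.56, though the change over both was. This depends on the setting. Both steps were called with DESeq2 and with the replicate number as a block. With library size alone only the step by HOXB8 was called, at 0.67, and with size factors of DESeq2 in edgeR neither was. The gene of 3 exons on the minus strand at chr5:58454254-58457967 had 20.1 and 24.0 CPM in pCIG, 27.9 and 39.6 CPM in MEK1ca and 118.5 and 130.3 CPM in MEK1ca + HOXB8. This was the largest step on addition of HOXB8 among the 5 with the highest TPM, a ratio of 3.65 after a ratio of 1.52 by MEK1ca. For the gene of 6 exons on the minus strand at chr14:2372453-2375530 the values were 14.2 and 15.2 CPM, 21.8 and 21.9 CPM, and 45.6 and 33.1 CPM. The gene of 15 exons on the plus strand at chr2:148019431-148043870 had 23.6 and 26.5 CPM, 62.1 and 42.3 CPM, and 80.4 and 97.6 CPM. It was the only one of these 5 whose step by MEK1ca was called in edgeR, where the log2 fold change was 1.08 (standard error 0.18). That call was lost without either pCIG library, at 0.98 and 1.18, and without either MEK1ca + HOXB8 library, at 1.08 in both.

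**Figure D4:**
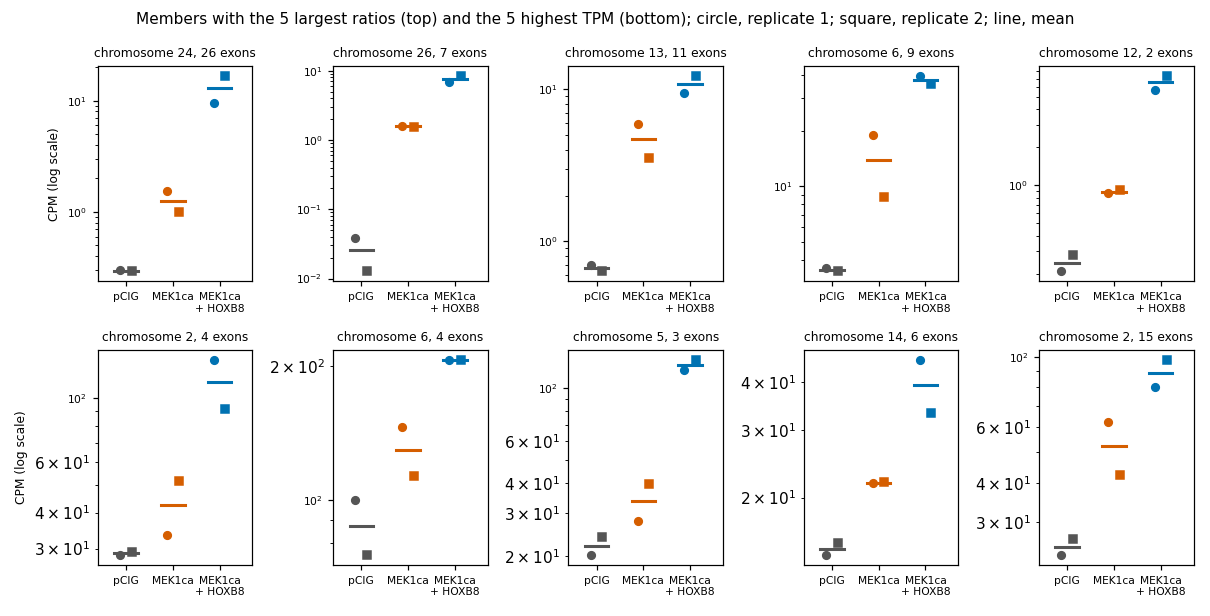
CPM in each library (vertical, log scale) for the genes with the 5 largest ratios of MEK1ca + HOXB8 over pCIG (upper row) and the 5 with the highest TPM in MEK1ca + HOXB8 (lower row), each headed by its chromosome and number of exons. Circles are replicate 1, squares replicate 2 and lines the mean of the 2 libraries. In every panel the libraries of the 3 conditions lie in separate ranges, as the selection required.

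On chromosome 26, 3 of the selected genes lay next to each other on the same strand. They span 14073 bases (chr26:1543127-1557199, galGal4), and were singled out after their positions were seen. The first of them, a gene of 2 exons at 1543127 to 1545030, had 7.71 and 10.3 CPM in pCIG, 13.7 and 12.4 CPM in MEK1ca and 24.6 and 36.9 CPM in MEK1ca + HOXB8. It was thus expressed in the control already. The second, a gene of 11 exons at 1545390 to 1549195, begins 359 bases further on and had 0.0779 and 0.126 CPM, 1.76 and 1.38 CPM, and 3.71 and 5.70 CPM. The third, 4662 bases beyond it, is the gene of 7 exons with 3 and 1 control counts. For these latter genes both steps were called in edgeR, with log2 fold changes of 3.93 and 1.48 for the second gene and 5.88 and 2.16 for the third, where the few control counts leave the first step loosely set. The call of the second gene on addition of HOXB8 was lost without either MEK1ca library, at 1.67 and 1.29, and without either MEK1ca + HOXB8 library, at 1.75 and 1.13. The first gene was called on addition of HOXB8 (1.13) and not by MEK1ca (0.55), and its call was lost when replicate 2 of MEK1ca (1.04) or of MEK1ca + HOXB8 (0.80) was left out.

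Genes on either side of this run did not meet the selection. The neighbour before it, on the plus strand at 1527549 to 1533439, had 682.5 and 717.9 CPM in pCIG, 632.5 and 680.8 CPM in MEK1ca and 654.2 and 650.2 CPM in MEK1ca + HOXB8, and was called in no comparison. The neighbour after it, on the plus strand at 1557671 to 1579275, had 48.8 and 44.4 CPM, 47.8 and 51.9 CPM, and 75.8 and 71.2 CPM. It was called higher on addition of HOXB8 (log2 fold change 0.45) and not by MEK1ca (0.12). The next gene, on the plus strand at 1580563 to 1587475, held 0 and 0 counts with pCIG, 5 and 0 with MEK1ca, and 81 and 183 when HOXB8 was co-expressed. It was called higher on addition of HOXB8 and not by MEK1ca. Its mean with HOXB8 stayed under 3 CPM, and its ratio of MEK1ca over pCIG, 1.08, fell short of the limit on that step. Its MEK1ca libraries also did not both lie above those of pCIG. It lies outside the selection on each of these grounds. Reads that run on from one gene into the next on the same strand were not tested.

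**Figure D5:**
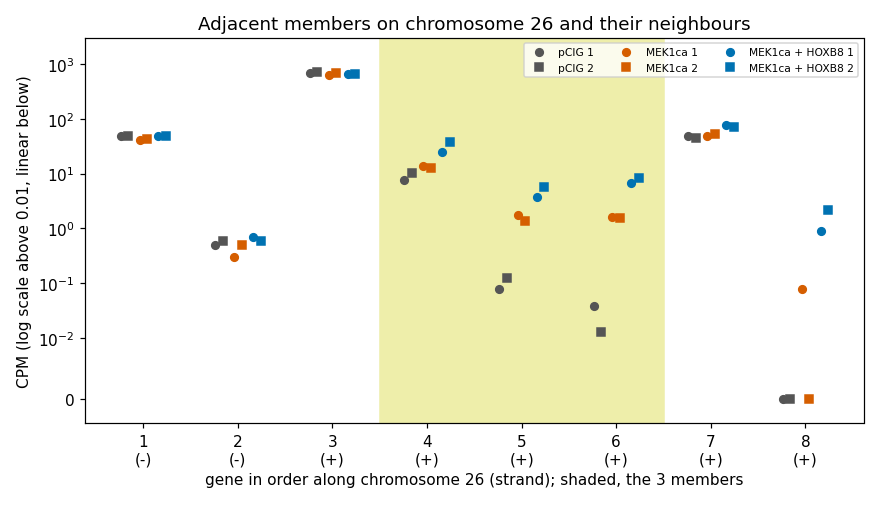
CPM in each library (vertical, log scale above 0.01 and linear below) for 8 consecutive genes on chromosome 26, with their strands. The shaded genes 4, 5 and 6 are the selected ones, at 9.02, 0.102 and 0.0258 CPM on average in pCIG and 30.8, 4.71 and 7.59 CPM in MEK1ca + HOXB8, while gene 3 stays between 632.5 and 717.9 CPM.

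Together, the 89 selected genes lay on 28 chromosomes, with 47 on the plus and 42 on the minus strand. Chromosome 5 held 10 of them and chromosomes 3 and 6 held 8 each. Relative to the genes that reached 3 CPM in MEK1ca + HOXB8, these are 1.45%, 0.942% and 2.29%, beside 0.864% over all chromosomes. Chromosome 1 held 6 (0.438%), chromosome 2 held 3 (0.321%), chromosome 15 none of its 273 genes and the Z chromosome 5 of its 502 (0.996%). With so few genes on a chromosome these shares are uncertain, and they were not tested. Pairs of selected genes with 1 to 3 genes between them lay on chromosome 10 (75322 bases apart), chromosome 13 (105014 bases) and chromosome 25 (19678 bases), and in each of these pairs the genes were on opposite strands.

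The genes adjacent to a selected gene that did not themselves meet the selection were examined in the same fit. Neighbours that met it were left out, while all genes tested include the selected ones. The set is thus not independent of the selection. There were 173 of them, and 153 had enough counts. By MEK1ca 6 were called higher (3.92%, beside 4.26% of all genes tested). On addition of HOXB8, 16 were called higher (10.5%, beside 8.74%) and 12 lower, and against pCIG 20 were higher in MEK1ca + HOXB8 (13.1%, beside 8.91%) and 3 lower. Their median log2 fold changes were 0.08, 0.08 and 0.14 in the 3 comparisons, beside -0.01, 0.02 and 0.02 for all genes. The shares called higher by MEK1ca and on addition of HOXB8 lay near the background and that against pCIG somewhat above it. These differences were not tested. The share of all genes called lower is not given here, so nothing is read from the lower calls.

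The structure of the selected genes was compared with that of all genes tested. They had a median of 10 exons (quartiles 5 and 16), beside 9 (5 and 15) over all genes tested. The median exonic length was 2412 bases beside 2171 bases, and the median span from the start to the end of the gene was 12314 bases beside 13091 bases. Among the genes that reached 3 CPM in MEK1ca + HOXB8, from which the selected ones were drawn, the medians were 10 exons, 2426.5 bases of exonic length and a span of 15468 bases. The selected genes thus differed little from these in exons and exonic length. Their median span was shorter, while the quartiles of the span went both ways. These were 4829 and 39663 bases in the selected genes, beside 6487.5 and 36475.75 bases. A gene of 1 exon occurred once among the 89 (1.12%, beside 6.01% of all genes tested), at chr7:25068118-25068894, with 0.286 and 0.481 CPM in pCIG, 0.566 and 1.09 CPM in MEK1ca and 4.34 and 2.91 CPM in MEK1ca + HOXB8. At the other extreme, 4 genes had 40 exons or more (4.49%, beside 2.27%). Neither share was counted among the genes that reached 3 CPM in MEK1ca + HOXB8, so the part of that limit is not known. The gene of 67 exons at chr18:9771940-9818172 had 1.78 and 1.02 CPM, 3.82 and 4.81 CPM, and 7.48 and 12.4 CPM. That of 63 exons at chr3:57586334-57923906 had 3.22 and 2.87 CPM, 4.70 and 4.91 CPM, and 13.0 and 13.6 CPM. The latter was the more even within conditions, and most of its rise came with HOXB8. Reads of 8 of the 89 genes could be shared with an annotated gene that overlaps them, on the opposite strand in 7 and on the same strand in 1, since whether the counting used the strand is not given in the sources used here.

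Genes just inside and outside the limits show how the selection was bounded. At the limit of 3 CPM, the lowest genes inside had 3.20 and 3.29 CPM in MEK1ca + HOXB8 and the highest outside 2.80 and 2.61 CPM. At the limit of 1.4 on the step by MEK1ca, the ratios were 1.403 and 1.403 inside and 1.399 and 1.394 outside, and at the limit of 1.5 on the step by HOXB8 they were 1.503 and 1.507 inside and 1.472 and 1.465 outside. Meeting every other condition, 14 genes fell short of the first limit alone, 121 of the second and 70 of the third. The step by MEK1ca was therefore the limit that kept out most genes. Other orders were counted with 1.4 from the lowest to the middle condition, 1.5 from the middle to the highest and 3 CPM in the highest. In the reverse order, 16 genes were lower with MEK1ca and lower again with HOXB8. There the limit of 1.5 fell on the step by MEK1ca and that of 1.4 on the step by HOXB8. Of the other orders of the 3 conditions, the one highest in MEK1ca and lowest in pCIG held 94 genes.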

How the data were processed

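The deposited table holds raw counts per Ensembl gene. The submitters' processing notes name Subread, featureCounts, DESeq, DESeq2 and galGal4. Their versions and the strand setting are not given in the sources used here. Paired reads came from linearly amplified cDNA. The authors' deposited tables of their own comparisons (log2 fold changes and p-values) were not used. CPM and TPM were computed from the counts and exonic lengths in Python 3.11.15 (numpy 2.4.6, pandas 2.3.3). Genes were tested in R 4.3.3 with edgeR 4.0.16 (filterByExpr, TMM factors from 0.964 to 1.05, a mean per condition, all 6 libraries, robust quasi-likelihood F test) and called at an adjusted p of 0.01 or less. Each standard error was taken as the fitted log2 change divided by the root of F. The fit was checked on simulated counts. DESeq2 1.42.0 was an alternative. The p-values measure the spread between 2 pools per condition, and amplified reads have no molecular identifiers. An exact permutation test of 2 against 2 libraries cannot go below 0.333.

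The genes, lists and tests were chosen with earlier results of these data known. Genes were named as those with the 5 largest ratios and the 5 highest TPM. The run on chromosome 26 and genes at the ends of a range were added after their values were seen. Libraries were not paired by number: deviations of libraries with the same number had correlations of 0.128, -0.027 and -0.113 over genes. Lists of genes and motifs prepared for this work could not be used without gene names.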

Additional observations from a re-analysis of the deposited data

How the results depend on the processing

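The 89 genes became 49 with a floor of 10 CPM, 11 with both ratios at 2 and 209 with both lowered below the limits used, and 65 to 110 under the other settings of the selection. Leaving out 1 library gave 83 to 129 genes, the most without pCIG replicate 1, and between 58 (without MEK1ca replicate 2) and 82 of the 89 were among them. At an adjusted p of 0.05, the members called higher became 49 in MEK1ca versus pCIG and 75 on addition of HOXB8, and all genes called higher 1023, 2307 and, against pCIG, 2234. With DESeq2, 48 members and 927 genes were called higher by MEK1ca. Where 1 library was left out, its partner was assumed to vary as the other conditions do, and this gave 16 to 31 members and 279 to 592 genes in MEK1ca versus pCIG, 22 to 48 members and 535 to 1089 genes in MEK1ca + HOXB8 versus MEK1ca, and 69 to 89 members and 451 to 1336 genes in MEK1ca + HOXB8 versus pCIG. The fewest members in the first came without pCIG replicate 2, in the second without MEK1ca + HOXB8 replicate 1 and in the third without pCIG replicate 2. With the replicate number as a block, 29, 52 and 87 members were called in place of 28, 49 and 86, and 606, 1159 and 1170 genes in place of 578, 1187 and 1210. Crossing the numbers between pCIG and MEK1ca + HOXB8 gave 2224 genes higher, beside 1576 with the block by number in the same 4 libraries and 89 members in both. This, loess offsets and halved counts of MEK1ca replicate 2 (28, 50 and 87 members) were chosen after seeing the data. Of 360 log2 fold changes of the 12 named genes under other settings, 302 had the same status as in the main fit, whether called or not called. Another 37 lost a call, 21 gained one and 0 changed sign. The causes were not tested. In MEK1ca versus pCIG, 341 and 279 genes were called without pCIG replicate 1 and 2. In MEK1ca + HOXB8 versus MEK1ca, 611 and 780 were called without either MEK1ca library and 535 and 697 without either MEK1ca + HOXB8 library. Against pCIG, 555 and 451 were called without either pCIG library and 616 and 667 without either MEK1ca + HOXB8 library. Planned counts of gene lists and promoter motifs were not run. With 2 libraries per condition, steps near the limits cannot be told from the spread of a library.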
